A study of Mus musculus with 4 samples.

Results

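The genes described here encode the lysosomal proton pump, the cathepsin proteases, the lysosome-associated membrane glycoproteins and the core autophagy proteins of group 2 innate lymphoid cells (ILC2s). They were chosen by gene symbol, without regard to their values: names that start with Atp6v or Atp6ap, Cts followed by a single letter, Lamp or Atg followed by a digit, names that start with Gabarap, and Tfeb, Sqstm1, Becn1, Map1lc3a and Map1lc3b. This gave 73 of the 22083 genes in the table. ILC2s lack antigen receptors, settle in tissues and secrete type 2 cytokines. RNA was sequenced from ILC2s sorted from the small intestinal lamina propria (SI-ILC2, 2 libraries) and from mesenteric white adipose tissue (WAT-ILC2, 2 libraries) of C57BL/6 wild-type mice at an age of 9 weeks, and the labels name no treatment. Since no label ties a library to its own mouse, a p-value here measures spread among libraries that may be technical repeats. Values are RPKM, reads scaled to gene length and to sequencing depth, as the authors deposited them.

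Lysosomes digest material delivered by endocytosis and autophagy. Their lumen is acidified by the V-ATPase, a rotary pump whose cytosolic V1 sector splits ATP and whose membrane V0 sector carries protons, and the acid activates cathepsins and other hydrolases. Macroautophagy wraps cytoplasm in a double membrane: an initiation complex and a lipid kinase complex start the membrane, lipid transfer proteins enlarge it, and a ubiquitin-like conjugation system attaches ATG8 proteins, which bind cargo receptors such as p62 (Sqstm1). TFEB is a transcription factor that switches on many lysosomal and autophagy genes through E-box elements of their promoters. In T cells and innate lymphoid cells autophagy is known to support survival.

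Depth, estimated from the steps between low RPKM values, was 55700000 to 76250000 reads per library, so that 1 RPKM of a gene of 1 kb stood for 55.7 to 76.2 reads. All 13 listed ILC2 markers passed the filter on low values, among them Gata3 at 354 and 377 RPKM in SI-ILC2 and 338 and 397 RPKM in WAT-ILC2. Of these markers 4 were called higher in SI-ILC2 (Il17rb, Icos, Il13 and Rora) and 4 lower (Il1rl1, Thy1, Il7r and Ptprc), by up to 12.4-fold for Il17rb, at 164 and 141 RPKM in SI-ILC2 and 14.3 and 10.3 RPKM in WAT-ILC2. The call of Il7r was lost without SI-ILC2 replicate 1 (adjusted p = 0.0632) and that of Ptprc without either SI-ILC2 library or WAT-ILC2 replicate 2 (up to 0.26). Summed markers of red cells were 41.6 and 13.2 RPKM in SI-ILC2 and 140 and 88.9 RPKM in WAT-ILC2, those of adipocytes 0.745 and 0.348 against 5.02 and 4.32 RPKM, and those of fibroblasts 1.17 and 1.53 against 10.2 and 4.85 RPKM. Most of the adipocyte sum in WAT-ILC2 was Fabp4, at 0.257 and 0.172 RPKM in SI-ILC2 and 4.32 and 3.43 RPKM in WAT-ILC2. Cfd and Retn were also lower in SI-ILC2 but reached at most 0.351 RPKM, and the libraries of the tissues overlapped for Adipoq, Lep, Plin1 and Cidec. Summed T cell markers were 8.58 and 6.82 RPKM in SI-ILC2 and 23.2 and 12.4 RPKM in WAT-ILC2. Most of this was Cd3g, while Cd3e overlapped and 5 of the 7 stayed below 1 RPKM. Those of granulocytes and mast cells were 1.37 and 1.18 against 3.35 and 2.28 RPKM. Summed epithelial markers overlapped, but Krt8 and Krt18 reached 4.32 and 2.01 RPKM in SI-ILC2 replicate 2. The part of all these cell types in the differences below was not tested. The columns sum to 151345 to 158718 RPKM in SI-ILC2 and 136705 to 141803 RPKM in WAT-ILC2, and the gene Gm10800 alone held 1.68% to 5.78% of them.

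Genes with at least 1 RPKM in at least 2 libraries were tested (limma on log2(RPKM + 1), Benjamini-Hochberg adjustment over 8230 genes, threshold 0.05). Of the 73 lysosome and autophagy genes 52 were tested, and 10 were higher and 15 lower in SI-ILC2 than in WAT-ILC2. That is 19.2% and 28.8% of those tested, beside a background of 17.9% and 29.6% of all tested genes called in these directions. The median log2 change was -0.19 for the 52 genes and -0.15 for all tested genes. Counted in either direction, 25 of 52 were called, beside a background of 47.5%. The libraries of the tissues did not overlap for 17 genes with SI-ILC2 above and for 24 with SI-ILC2 below, beside backgrounds of 29.8% and 45.9%. The group as a whole was therefore near the background, and the results lie in which members rose and which fell. A change of more than 1 on the log2 scale was found for 4 genes that rose and 4 that fell (background 6% and 8.94%). With median-of-ratios scaling, after which the median of all tested genes was 0.0015, 13 members rose and 11 fell, so that 54.2% of the calls were toward SI-ILC2, against 40% as deposited. With columns rescaled to equal sums that median was -0.26. Calls lost under another scaling were those of Atg101, Atg2a, Atg4d and Lamp1 with median-of-ratios scaling, Map1lc3b and Atp6v0c with equal sums, and Atp6v0c, Atp6v1g2, Atg2a, Atg9a and Atg4d with quantile normalization. No called member changed direction under any of the 12 alternative settings. Without SI-ILC2 replicate 1, 6 members rose and 10 fell, and without SI-ILC2 replicate 2, 7 rose and 6 fell. In bulk RNA of sorted cells, fewer expressing cells and less RNA per cell cannot be told apart, nor can the tissue and its isolation procedure.

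**Figure D1:**
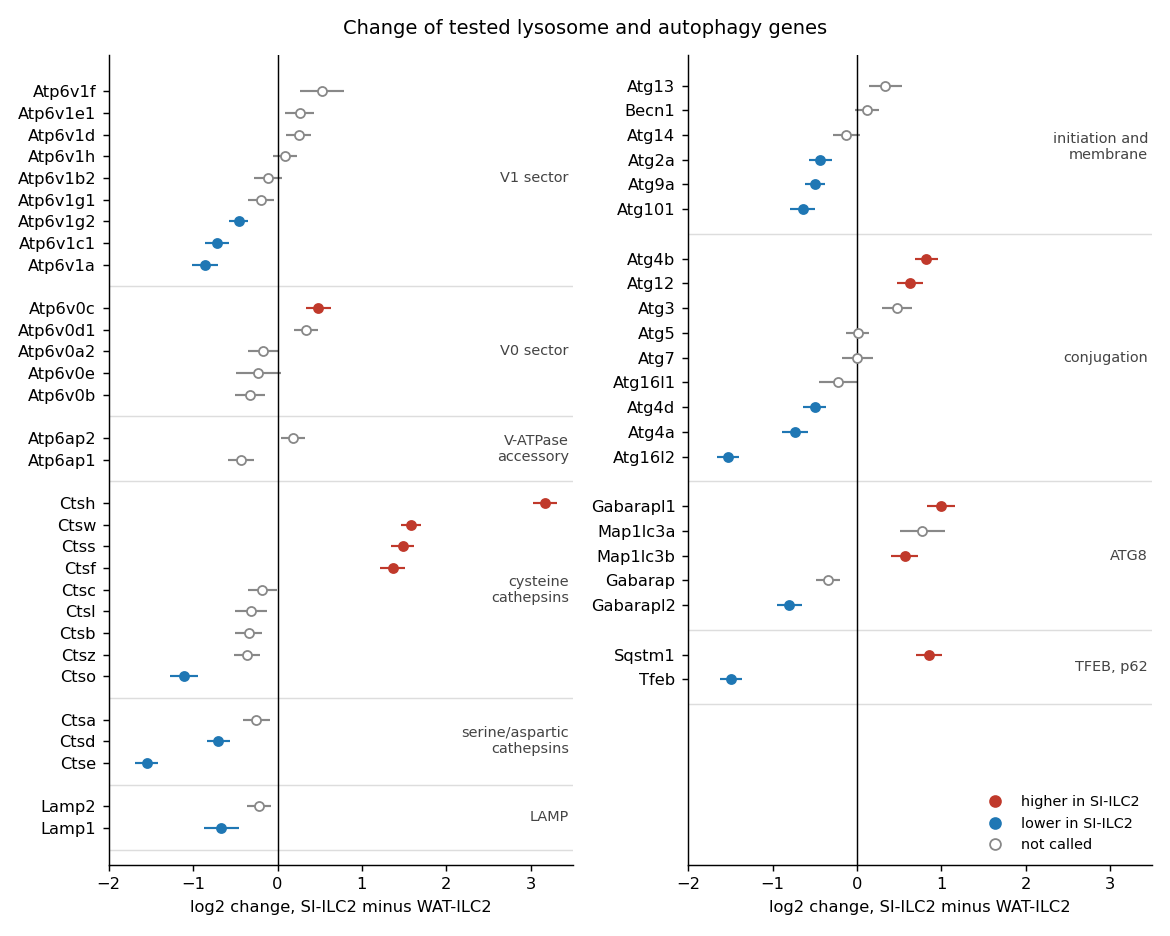
Log2 change (log2(RPKM + 1), SI-ILC2 minus WAT-ILC2) of the 52 tested genes, grouped by role, with bars of 1 SE. Filled red points are the 10 genes called higher and filled blue points the 15 called lower in SI-ILC2, and open points were not called. Ctsh stands apart at 3.17.

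Cathepsins made up all 4 of the rises and 2 of the 4 falls of more than 1 on the log2 scale. Of 12 tested cathepsin genes, 4 were higher in SI-ILC2 and 3 were lower (33.3% and 25%, beside the background of 17.9% and 29.6%). The 4 that rose, Ctsh, Ctsw, Ctss and Ctsf, are all cysteine proteases and were nearly silent or low in WAT-ILC2. Of these, Ctsh, Ctsw and Ctss passed the filter only through SI-ILC2 and could only enter the test with a difference. The 3 that fell were the cysteine protease gene Ctso and the aspartic protease genes Ctse and Ctsd.

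Ctsh (chromosome 9, 90054152 to 90076089), which encodes the aminopeptidase cathepsin H, had 12.1 and 12.9 RPKM in SI-ILC2, against 0.424 and 0.572 RPKM in WAT-ILC2. Both intestinal libraries were high and both adipose libraries were close to nothing. The means differed 25.1-fold, and the log2 change was 3.17 ± 0.14 (SE, adjusted p = 0.000141). Ctsw (chromosome 19, 5465043 to 5468507), a cathepsin gene known from cytotoxic lymphocytes, had 2.86 and 2.76 RPKM in SI-ILC2 and 0.234 and 0.309 RPKM in WAT-ILC2. The groups did not overlap, with a log2 change of 1.58 ± 0.12 (SE, adjusted p = 0.000403). Ctss (chromosome 3, 95526786 to 95556403), the protease that trims the MHC class II invariant chain in antigen-presenting cells, had 4.33 and 3.99 RPKM in SI-ILC2 and 0.890 and 0.797 RPKM in WAT-ILC2. The change was 1.48 ± 0.13 on the log2 scale (SE, adjusted p = 0.000651). Ctsf (chromosome 19, 4855130 to 4860918), the cathepsin F gene, had 4.79 and 4.82 RPKM in SI-ILC2, against 1.09 and 1.43 RPKM in WAT-ILC2. Its log2 change was 1.37 ± 0.15 (SE, adjusted p = 0.00107), and replicates differed little in either tissue. All of these calls held under every alternative in which the gene was tested.

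Other cells also use these cathepsins, and their markers did not all move in the same direction. The 8 B and plasma cell markers summed to 72.7 and 65.7 RPKM in SI-ILC2 and 26.5 and 22.4 RPKM in WAT-ILC2. Most of this was Xbp1 (47.6 and 46.2 against 23.0 and 19.1 RPKM) and Cd79b (17.3 and 13.1 against 2.59 and 2.36 RPKM), and these rose together with Igj, the plasma cell gene of the immunoglobulin J chain, at 7.02 and 5.51 RPKM in SI-ILC2 and 0.0129 and 0 RPKM in WAT-ILC2 (adjusted p = 0.000189). All 3 tested genes of that list were thus higher in SI-ILC2, while Ms4a1, a B cell gene that plasma cells lack, stayed below 0.1 RPKM in all 4 libraries. The 20 macrophage and dendritic cell markers summed to 10.5 and 8.76 RPKM in SI-ILC2 and 19.8 and 22.9 RPKM in WAT-ILC2, and 7 of them, Cd163, Mrc1, Fcgr1, Itgax, Flt3, Clec9a and Cd209a, stayed below 0.1 RPKM in all libraries. Of the 4 tested, Lyz2 was lower in SI-ILC2, at 0.633 and 0.331 RPKM against 3.53 and 5.50 RPKM in WAT-ILC2 (adjusted p = 0.00122), as were Apoe (adjusted p = 0.024) and Xcr1 (adjusted p = 0.0168), whose calls were lost without SI-ILC2 replicate 2 (adjusted p = 0.0943 for Apoe and 0.0768 for Xcr1). Among 9 markers of NK cells, ILC1 and ILC3, which summed to 10.9 and 12.6 RPKM in SI-ILC2 and 0.888 and 1.32 RPKM in WAT-ILC2, the granzyme B gene Gzmb had 6.74 and 6.63 RPKM in SI-ILC2 and at most 0.14 RPKM in WAT-ILC2, and Eomes and Il23r were below 0.1 RPKM throughout. Of these markers, Igj and Gzmb passed the filter only through SI-ILC2 and Lyz2 only through WAT-ILC2. They could only enter the test with a difference. The part of such cells in the cathepsin differences was not tested. Exons of Ctsw overlap Fibp on the opposite strand, and Fibp had 6.09 and 6.02 RPKM in SI-ILC2 and 3.92 and 3.90 RPKM in WAT-ILC2. No source used here says whether reads were assigned by strand, so reads of such pairs cannot be told apart.

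Ctse (chromosome 1, 131638306 to 131675505), which encodes an aspartic protease of endosomes in immune and gastric cells, had 3.72 and 4.18 RPKM in SI-ILC2 and 13.5 and 13.4 RPKM in WAT-ILC2. Both intestinal libraries were well below both adipose libraries, a fall of the log2 value by 1.55 ± 0.14 (SE, adjusted p = 0.000631). Ctso (chromosome 3, 81932601 to 81956725) had 4.31 and 3.38 RPKM in SI-ILC2, against 10.1 and 8.75 RPKM in WAT-ILC2. It fell by 1.11 ± 0.16 on the log2 scale (SE, adjusted p = 0.00298). Ctsd (chromosome 7, 142375911 to 142388038), the main aspartic protease of lysosomes and the most abundant cathepsin in every library, had 28.1 and 28.5 RPKM in SI-ILC2 and 43.8 and 49.5 RPKM in WAT-ILC2. The fall of 0.70 ± 0.14 on the log2 scale (SE, adjusted p = 0.00892) kept its direction, but its adjusted p reached 0.0721 when SI-ILC2 replicate 1 or replicate 2 was left out.

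The remaining tested cathepsins were common to both tissues and were not called. Ctsa, the protective protein of lysosomal galactosidase and neuraminidase, averaged 15.6 ± 0.951 RPKM in SI-ILC2 and 18.8 ± 3.29 RPKM in WAT-ILC2 (SD, n = 2 each). Ctsz averaged 12.03 ± 1.6 against 15.7 ± 0.798 RPKM, Ctsc, which activates granule serine proteases, 10.2 ± 1.94 against 11.6 ± 0.929 RPKM, Ctsb 8.94 ± 1.32 against 11.6 ± 1.31 RPKM, and Ctsl 7.57 ± 0.512 against 9.77 ± 2.45 RPKM. All 5 means were lower in SI-ILC2, with adjusted p-values from 0.0904 for Ctsz to 0.414 for Ctsc. The other 6 cathepsin genes did not reach the filter. Ctsk, the osteoclast collagenase, had 0.142 and 0.147 RPKM in SI-ILC2 and 0.267 and 0.339 RPKM in WAT-ILC2, the neutrophil protease gene Ctsg had 0.157 and 0.150 against 0.0359 and 0.0455 RPKM, and Ctsj, Ctsm, Ctsq and Ctsr stayed below 0.1 RPKM everywhere.

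**Figure D2:**
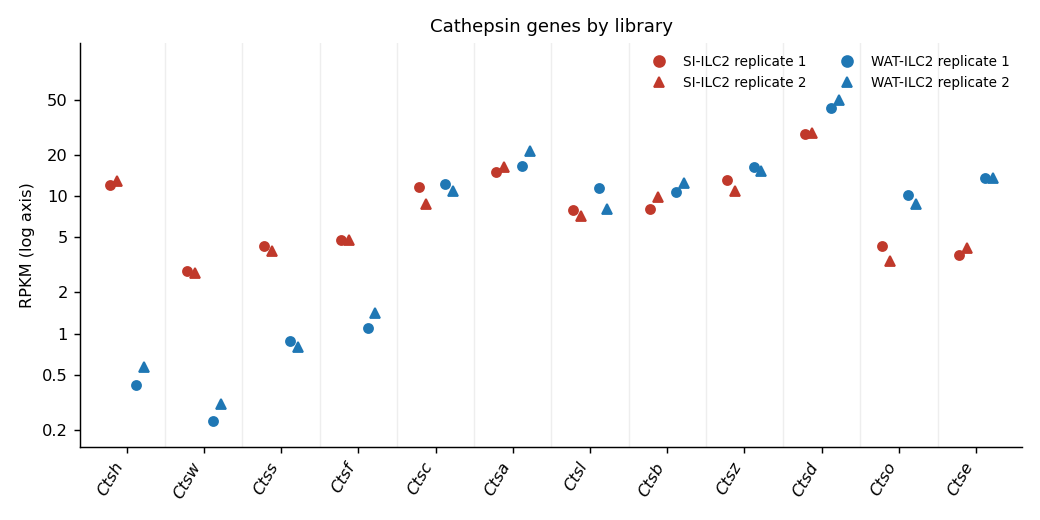
RPKM (log axis) of the 12 tested cathepsin genes in each library, ordered by log2 change, with SI-ILC2 in red and WAT-ILC2 in blue (circles replicate 1, triangles replicate 2). Ctsh, Ctsw, Ctss and Ctsf lie above in SI-ILC2, Ctso, Ctse and Ctsd lie below, and the libraries of the other genes are close together or overlap.

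The mixture of cathepsin transcripts therefore differed more than its total. Summed over the 18 cathepsin genes, RPKM were 116 and 114 in SI-ILC2 and 138 and 143 in WAT-ILC2. Ctsh made up 10.4% and 11.3% of this sum in SI-ILC2, where it was about as abundant as Ctsz and Ctsc, and 0.308% and 0.400% in WAT-ILC2. The share of Ctsd was 24.2% and 25.0% in SI-ILC2 and 31.8% and 34.6% in WAT-ILC2, and that of Ctse was 3.20% and 3.67% against 9.81% and 9.38%. These shares use RPKM, which is per length, and are a description with no test.

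The list of cathepsin inhibitors holds cystatin and serpin genes, and not all of its proteins are known mainly for acting on cathepsins. Of its 11 genes 7 were tested, with 4 higher and 2 lower in SI-ILC2 (57.1% and 28.6%, beside the background of 17.9% and 29.6%). Serpinb9, whose product inhibits granzyme B, had 21.5 and 23.1 RPKM in SI-ILC2 and 8.93 and 10.5 RPKM in WAT-ILC2 (adjusted p = 0.00192). Cstb, the gene of cystatin B, an inhibitor of cysteine cathepsins in the cytosol, had 4.12 and 2.88 RPKM in SI-ILC2, against 21.0 and 12.1 RPKM in WAT-ILC2 (adjusted p = 0.00255). Serpinb6a moved as Cstb did, at 2.73 and 3.003 against 12.2 and 9.05 RPKM, and its neighbour in the family, Serpinb6b, moved the other way, at 28.95 and 27.4 RPKM in SI-ILC2 and 16.75 and 12.9 RPKM in WAT-ILC2. Cst7, which encodes cystatin F of lymphocyte granules, had 3.61 and 2.61 against 1.77 and 0.463 RPKM, and its adjusted p of 0.0337 became 0.0833 without SI-ILC2 replicate 1.

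Tfeb and Sqstm1, the transcription factor of lysosomal genes and the best-known cargo receptor of autophagy, moved in opposite directions. Tfeb (chromosome 17, 47737030 to 47792419) had 0.706 and 0.681 RPKM in SI-ILC2 and 3.58 and 3.92 RPKM in WAT-ILC2. Both intestinal libraries were low, a 5.41-fold difference of the means, and the log2 value fell by 1.49 ± 0.13 (SE, adjusted p = 0.000601), under every alternative in which the gene was tested. Tfeb passed the filter only through WAT-ILC2, however, and could only enter the test with a difference. Sqstm1 (chromosome 11, 50199366 to 50210827) was the most abundant of the 73 genes in both SI-ILC2 libraries, at 129 and 119 RPKM, and had 63.8 and 72.4 RPKM in WAT-ILC2, where it came after the pump gene Atp6v0c. Its exons overlap Mrnip on the opposite strand, a gene not analysed here. Sqstm1 rose 1.82-fold, a log2 change of 0.86 ± 0.15 (SE, adjusted p = 0.00584), and its adjusted p was 0.0600 without SI-ILC2 replicate 1.

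Among the genes that start the autophagic membrane, 3 of 6 tested were lower in SI-ILC2 and none was higher, beside the background of 29.6% lower and 17.9% higher, and Atg9a passed the filter only through WAT-ILC2. Atg101, a stabilising subunit of the ULK kinase complex, had 8.31 and 6.77 RPKM in SI-ILC2 and 12.4 and 12.1 RPKM in WAT-ILC2 (log2 change -0.64, SE 0.15, adjusted p = 0.0151). Atg9a, whose product is a lipid scramblase of the vesicles that seed the membrane, had 0.655 and 0.618 against 1.23 and 1.40 RPKM (adjusted p = 0.0144). Atg2a, which encodes a lipid transfer protein, had 2.62 and 2.83 RPKM in SI-ILC2 and 4.16 and 3.89 RPKM in WAT-ILC2 (adjusted p = 0.0434). In none of the 3 did the libraries of the tissues overlap, but all 3 calls were lost without SI-ILC2 replicate 2, and that of Atg2a without any 1 of the 4 libraries, with adjusted p-values of up to 0.11 for Atg101, 0.0592 for Atg9a and 0.215 for Atg2a. Genes of the lipid kinase complex were not called. Becn1 had 32.1 and 28.2 RPKM in SI-ILC2 and 28.0 and 27.1 RPKM in WAT-ILC2 (adjusted p = 0.508), and Atg14 had 2.75 and 2.47 against 3.33 and 2.57 RPKM (adjusted p = 0.540). Atg13, the partner of Atg101, had 6.20 and 8.30 against 4.75 and 6.34 RPKM, and its adjusted p was 0.203. Exons of Atg9a overlap Ankzf1 on the opposite strand, which had 2.30 and 3.07 RPKM in SI-ILC2 and 2.6 and 3.52 RPKM in WAT-ILC2. Below the filter, Atg9b had 0.593 and 0.359 RPKM in SI-ILC2 and 0.0960 and 0.144 RPKM in WAT-ILC2, and Atg2b stayed between 0.700 and 1.07 RPKM.

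The conjugation system held calls in both directions, 2 higher and 3 lower of 9 tested (22.2% and 33.3%, beside the background of 17.9% and 29.6%). Atg16l2 (chromosome 7, 101263034 to 101302251), a paralog of the scaffold gene Atg16l1, had 8.07 and 8.36 RPKM in SI-ILC2 and 25.8 and 25.3 RPKM in WAT-ILC2. The replicates were nearly equal and the tissues far apart, with a log2 change of -1.53 ± 0.13 (SE, adjusted p = 0.000571). Atg16l1 itself had 4.80 and 4.18 RPKM in SI-ILC2 and 4.11 and 7.01 RPKM in WAT-ILC2, which overlap (adjusted p = 0.458). The ratio of Atg16l2 to Atg16l1 within a library was thus 1.68 and 2.00 in SI-ILC2 and 6.28 and 3.61 in WAT-ILC2. Exons of Atg16l2 overlap Fchsd2 on the opposite strand, which had at most 1.47 RPKM in any library.

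The ATG4 proteases, which cut ATG8 proteins before conjugation and release them afterwards, did not move together. Atg4b, the member with the broadest activity, rose, at 10.5 and 10.1 RPKM in SI-ILC2 and 5.61 and 5.18 RPKM in WAT-ILC2 (log2 change 0.82, SE 0.14, adjusted p = 0.00437). Atg4a fell, at 3.85 and 3.5 against 7.37 and 6.23 RPKM (adjusted p = 0.00925), and so did Atg4d, at 4.96 and 4.99 against 7.31 and 7.59 RPKM (adjusted p = 0.0244). Atg4c was below the filter at 0.428 and 0.326 RPKM in SI-ILC2 and 0.819 and 1.46 RPKM in WAT-ILC2. The call of Atg4a was lost without SI-ILC2 replicate 2 (adjusted p = 0.0525), and that of Atg4d without either SI-ILC2 library or WAT-ILC2 replicate 2 (up to 0.133). Kri1, on the opposite strand of Atg4d with overlapping exons, was lower in SI-ILC2 as well, at 3.53 and 3.13 RPKM against 5.66 and 5.19 RPKM in WAT-ILC2.

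Atg12, the ubiquitin-like protein joined to Atg5, rose, at 12.1 and 12.2 RPKM in SI-ILC2 and 6.69 and 8.38 RPKM in WAT-ILC2 (log2 change 0.63, SE 0.15, adjusted p = 0.0173, and up to 0.0787 without either SI-ILC2 library or WAT-ILC2 replicate 1). Its partner Atg5 had 3.54 and 3.70 RPKM in SI-ILC2 and 3.75 and 3.449 RPKM in WAT-ILC2. The activating enzyme gene Atg7 had 3.43 and 3.81 against 2.99 and 4.32 RPKM, and both genes had adjusted p-values of at least 0.970. Atg3, the conjugating enzyme for ATG8 proteins, had 8.48 and 9.02 against 7.04 and 5.12 RPKM and missed the threshold (adjusted p = 0.0636). Atg10, the enzyme that joins Atg12 to Atg5, stayed below 1 RPKM in all libraries.

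The ATG8 proteins fall into the LC3 and GABARAP families, and calls were found in both. Gabarapl1 (chromosome 6, 129533160 to 129542346) had 6.55 and 6.54 RPKM in SI-ILC2 and 2.39 and 3.24 RPKM in WAT-ILC2, a rise of 0.99 ± 0.16 on the log2 scale (SE, adjusted p = 0.00426). Gabarapl2 (chromosome 8, 111940703 to 111953612) had 8.17 and 7.75 RPKM in SI-ILC2, against 15.8 and 13.5 RPKM in WAT-ILC2, and fell by 0.80 ± 0.14 (SE, adjusted p = 0.00589). So these paralogs moved in opposite directions, and both calls held under every alternative in which the gene was tested. Map1lc3b, which encodes the commonly used autophagosome marker LC3B, rose, at 28.4 and 24.5 RPKM in SI-ILC2 and 19.4 and 15.9 RPKM in WAT-ILC2 (log2 change 0.56, adjusted p = 0.0297). Its call was lost without either SI-ILC2 library or WAT-ILC2 replicate 2, with an adjusted p of up to 0.189, and with columns rescaled to equal sums. Exons of Map1lc3b overlap Zcchc14 on the opposite strand, which had 0.245 and 0.332 RPKM in SI-ILC2 and 3.07 and 3.40 RPKM in WAT-ILC2. Map1lc3a had 4.12 and 5.17 RPKM in SI-ILC2 and 1.53 and 3.28 RPKM in WAT-ILC2, with adipose replicates far apart (adjusted p = 0.051). Gabarap had 18.3 and 16.4 against 23.1 and 21.5 RPKM (adjusted p = 0.0845).

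Summed over the 5 ATG8 genes, RPKM were 65.5 and 60.5 in SI-ILC2 and 62.2 and 57.4 in WAT-ILC2, so the totals overlapped while the mixture differed. Map1lc3b made up 43.3% and 40.6% of the sum in SI-ILC2 and 31.2% and 27.6% in WAT-ILC2. Gabarapl2 made up 12.5% and 12.8% in SI-ILC2 and 25.4% and 23.5% in WAT-ILC2. In consequence Map1lc3b exceeded Gabarap 1.55-fold and 1.49-fold in the SI-ILC2 libraries, while the ratio was 0.839 and 0.738 in the WAT-ILC2 libraries. No test was made of these shares.

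**Figure D3:**
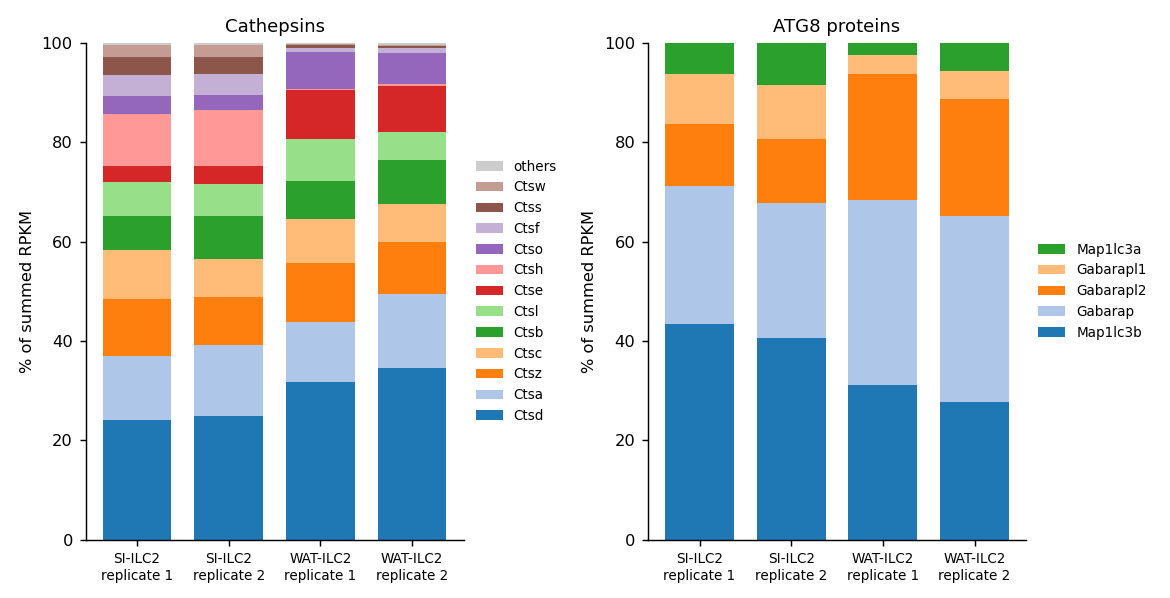
Percent of the summed RPKM of the cathepsin genes (left) and of the ATG8 genes (right) held by each gene in each library, with SI-ILC2 libraries left of WAT-ILC2 libraries. Cathepsins under 2% in every library are grouped as others. Ctsh is a band of 10.4% and 11.3% in SI-ILC2 and a thin line of 0.308% and 0.400% in WAT-ILC2, and Map1lc3b is the largest ATG8 share in SI-ILC2 while Gabarap is in WAT-ILC2.

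For the V-ATPase, 16 of 25 genes were tested, and 1 was higher and 3 were lower in SI-ILC2. That is 6.25% and 18.8%, both under the background of 17.9% and 29.6%. Of the 3, Atp6v1g2 passed the filter only through WAT-ILC2 and could only enter the test with a difference. In the V1 sector Atp6v1a (chromosome 16, 44085402 to 44139705), the catalytic subunit, had 3.06 and 3.65 RPKM in SI-ILC2 and 6.47 and 7.28 RPKM in WAT-ILC2. It fell by 0.86 ± 0.15 on the log2 scale (SE, adjusted p = 0.00553) under every alternative in which it was tested. Atp6v1c1, the clamp subunit that joins V1 to V0 when the pump assembles, had 3.47 and 3.25 RPKM in SI-ILC2 and 6.62 and 5.72 RPKM in WAT-ILC2 (log2 change -0.72, SE 0.15, adjusted p = 0.00926, and 0.0518 without SI-ILC2 replicate 2). Atp6v1g2, a stalk subunit best known from brain, was low, at 0.682 in both SI-ILC2 libraries and 1.39 and 1.24 RPKM in WAT-ILC2 (adjusted p = 0.0189, and up to 0.0705 without either SI-ILC2 library or WAT-ILC2 replicate 1). Its exons overlap Nfkbil1 on the opposite strand, which had 0.492 and 0.845 RPKM in SI-ILC2 and 3.24 and 7.03 RPKM in WAT-ILC2. The 6 other tested V1 genes were not called: Atp6v1e1, Atp6v1b2, Atp6v1h, Atp6v1f, Atp6v1d and Atp6v1g1, from the most to the least abundant in SI-ILC2, had means of 16.3 to 2.91 RPKM in SI-ILC2 and 13.6 to 3.29 RPKM in WAT-ILC2.

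In the V0 sector Atp6v0c (chromosome 17, 24163866 to 24169702), the proton-carrying ring subunit, was the most abundant pump gene at 106 and 114 RPKM in SI-ILC2 and 77.4 and 79.3 RPKM in WAT-ILC2. Its rise of 0.48 ± 0.15 on the log2 scale (SE, adjusted p = 0.0348) was not called without any 1 of the 4 libraries, with adjusted p-values of 0.0573 to 0.244, nor with equal column sums or quantile normalization. Within a library Atp6v0c exceeded Atp6v1a 34.7-fold and 31.2-fold in SI-ILC2 and 11.97-fold and 10.9-fold in WAT-ILC2. Pseudogenes of Atp6v0c are annotated, and how the authors treated reads shared with them is not known here. Atp6v0d1, the central stalk subunit, had 33.4 and 31.9 against 27.3 and 23.9 RPKM and was not called (adjusted p = 0.0918), as were Atp6v0b, Atp6v0e and Atp6v0a2. Of the accessory proteins, Atp6ap1, an assembly factor of the pump, had 31.0 and 26.2 RPKM in SI-ILC2 and 40.5 and 37.2 RPKM in WAT-ILC2 (adjusted p = 0.055), and Atp6ap2, the prorenin receptor, had 17.3 and 16.1 against 13.7 and 15.4 RPKM (adjusted p = 0.311).

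Tissue-restricted subunits stayed near the floor in both tissues. Atp6v1b1, Atp6v1c2, Atp6v1e2, Atp6v1g3, Atp6v0a4, Atp6v0d2 and Atp6v0e2, known from kidney, testis, bone or brain, and the accessory gene Atp6ap1l were below 0.2 RPKM in every library. The a subunit, which directs the pump to its membrane, was mainly that of Tcirg1 and Atp6v0a2. Tcirg1, which the naming rule does not cover, had 8.07 and 11.6 RPKM in SI-ILC2 and 5.05 and 10.2 RPKM in WAT-ILC2 (adjusted p = 0.351), and Atp6v0a2 had 3.76 and 5.05 against 4.54 and 5.57 RPKM (adjusted p = 0.471). Atp6v0a1, below the filter, had 0.399 and 0.488 RPKM in SI-ILC2 and 0.953 and 1.29 RPKM in WAT-ILC2, so that Atp6v0a2 exceeded it 9.42-fold and 10.3-fold in SI-ILC2 and 4.77-fold and 4.32-fold in WAT-ILC2.

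**Figure D4:**
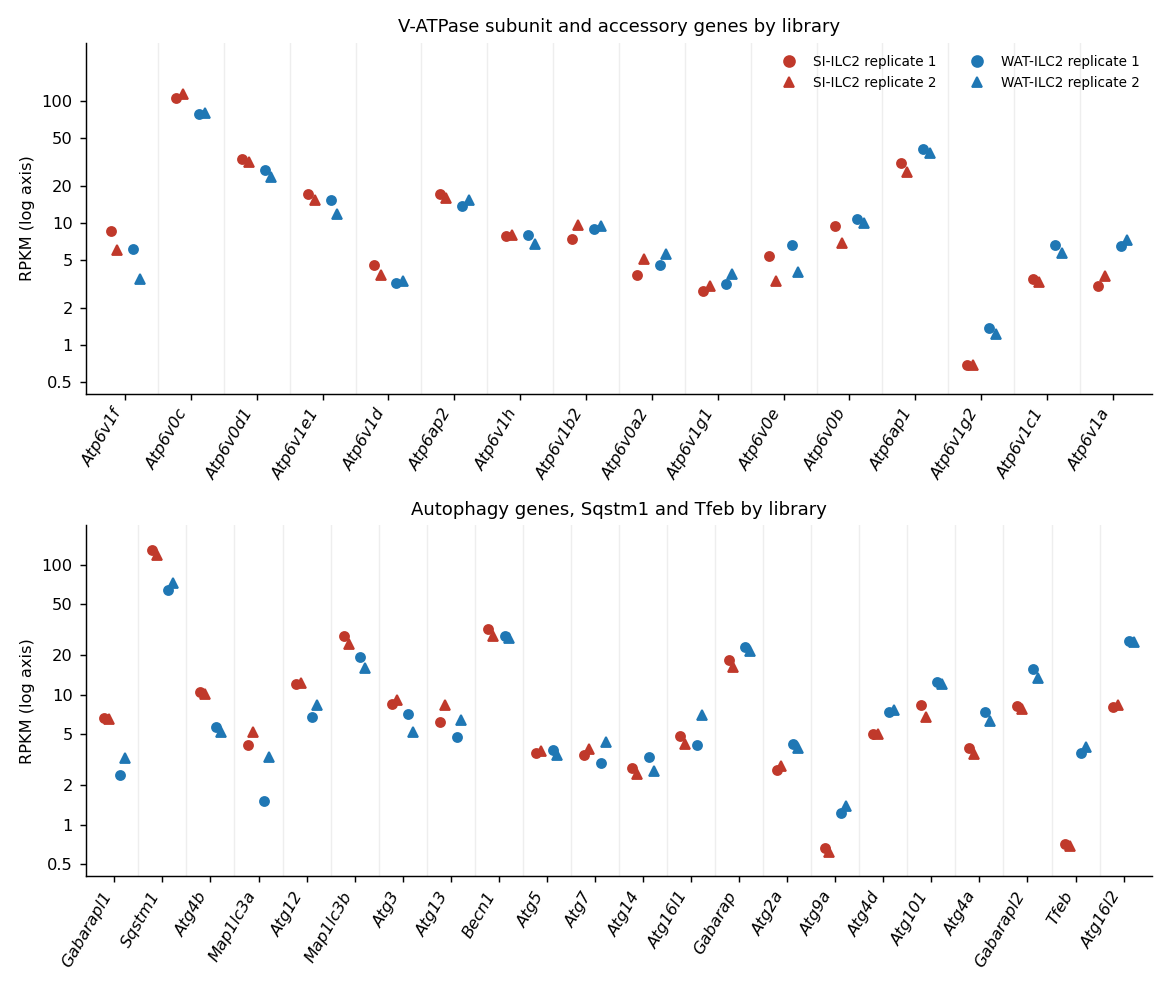
RPKM (log axis) in each library of the 16 tested V-ATPase genes (top) and of the 22 tested autophagy genes with Sqstm1 and Tfeb included (bottom), ordered by log2 change, with SI-ILC2 in red and WAT-ILC2 in blue (circles replicate 1, triangles replicate 2). Atp6v1a, Atp6v1c1, Atg16l2 and Tfeb are low and Sqstm1, Gabarapl1 and Atg4b are high in SI-ILC2.

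Of the lysosome-associated membrane glycoproteins, which form most of the inner coat of the lysosomal membrane, Lamp1 had 20.6 and 25.2 RPKM in SI-ILC2 and 30.8 and 43.8 RPKM in WAT-ILC2. The libraries did not overlap (log2 change -0.66, SE 0.21, adjusted p = 0.0382), but the adipose replicates were far apart, and the adjusted p reached 0.192 without either SI-ILC2 library or WAT-ILC2 replicate 2. The call was also lost with median-of-ratios scaling. Its exons overlap Grtp1 on the opposite strand, which had 0.171 and 0.0511 RPKM in SI-ILC2 and 0.880 and 1.09 RPKM in WAT-ILC2. Lamp2 had 2.77 and 2.81 RPKM in SI-ILC2 and 3.20 and 3.64 RPKM in WAT-ILC2 (adjusted p = 0.237). Lamp3, the marker of mature dendritic cells, and Lamp5, of plasmacytoid dendritic cells and neurons, were below 0.2 RPKM everywhere. In all, 21 of the 73 genes were not tested, 18 of them below 1 RPKM in all libraries and none above 1.46 RPKM. Another 6 passed the filter through a single tissue, Ctsh, Ctss and Ctsw through SI-ILC2 and Tfeb, Atg9a and Atp6v1g2 through WAT-ILC2, and such genes could only enter the test with a difference.

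Promoters of the members were searched for the E-box core CACGTG and for its extension TCACGTGA, which lies at the heart of the element bound by TFEB. Both are palindromes, so a single search covers both strands, and the longer motif contains the shorter. In the RefSeq promoter table (GRCm38.p6, 250 bases before to 50 after each start), 58 of the 73 genes had a promoter, and 13 of these (22.4%) held the core, against 8.09% of 27025 genes in the table. All 13 were among the 39 tested members with a promoter (33.3%), against 12.7% of 6212 tested genes with one. TCACGTGA was found in 6 members, 10.3% of the 58 against 1.12% of all genes, and 15.4% of the 39 against 2.61% of the tested genes. Among members with a promoter, a core was held by 1 of 7 that rose (Ctsf, 14.3%) and 3 of 13 that fell (Ctsd, Atp6v1a and Lamp1, 23.1%). It was held by 9 of 19 that were not called (47.4%), namely Ctsa, Ctsl, Atp6v0b, Atp6v0d1, Atp6v0e, Atg3, Atg5, Atg7 and Atg14. A gene was counted if any promoter listed for it held the motif. The match is to letters only and says nothing of binding.

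Shown are the stretches with the cores in the 4 called genes, with capitals on the motif letters, and for comparison Ctsa, which holds TCACGTGA 2 times and was not called. They are given 5′ to 3′ on the strand of the gene, Ctsd at chr7:142387890-142388077 (minus strand), Atp6v1a at chr16:44139355-44139420 (minus strand), Lamp1 at chr8:13159070-13159181 (plus strand), Ctsf at chr19:4855056-4855121 (plus strand) and Ctsa at chr2:164833731-164833813 (plus strand).
Ctsd: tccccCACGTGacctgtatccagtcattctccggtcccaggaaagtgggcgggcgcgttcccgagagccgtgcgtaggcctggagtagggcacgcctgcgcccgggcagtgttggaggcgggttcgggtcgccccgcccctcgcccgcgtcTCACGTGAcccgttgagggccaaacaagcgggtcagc
Atp6v1a: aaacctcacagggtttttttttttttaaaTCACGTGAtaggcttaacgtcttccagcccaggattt
Lamp1: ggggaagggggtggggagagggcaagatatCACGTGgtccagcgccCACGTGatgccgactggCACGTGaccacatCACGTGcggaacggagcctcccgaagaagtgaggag
Ctsf: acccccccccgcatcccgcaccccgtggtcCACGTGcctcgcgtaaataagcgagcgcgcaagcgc
Ctsa: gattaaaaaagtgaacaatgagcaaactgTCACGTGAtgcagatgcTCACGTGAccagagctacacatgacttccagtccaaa
The Lamp1 stretch holds 4 cores close together and no extended motif, while Ctsd and Atp6v1a each hold the extended form. The stretches of Atp6v1a and Ctsa lie wholly within the GENCODE coordinates of these genes, so their promoters belong to starts inside the gene.

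Other genes of the pathway were counted from lists of 151 genes in all, of which 119 were tested, 20 higher and 41 lower in SI-ILC2. That is 16.8% and 34.5%, beside the background of 17.9% and 29.6%. Of the 119, 12 passed the filter through a single tissue and could only enter the test with a difference, among them Pla2g15, Arsb, Lamtor2, Bnip3 and Gnptab through WAT-ILC2 and Igf2r through SI-ILC2, so the counts of called genes are a description. The lysosomal hydrolases and their cofactors outside the cathepsins leaned most toward WAT-ILC2: of 31 tested, 2 were higher and 17 lower (6.45% and 54.8%, beside the background of 17.9% and 29.6%), with a median log2 change of -0.57. On the log2(RPKM + 1) scale their largest falls were those of Pla2g15, a lysosomal phospholipase (0.141 and 0.390 RPKM in SI-ILC2, 2.04 and 1.87 RPKM in WAT-ILC2), the sialidase gene Neu1 (6.87 and 7.09 against 15.8 and 18.9 RPKM) and the beta-mannosidase gene Manba (1.41 and 0.902 against 3.59 and 4.09 RPKM), with adjusted p-values of 0.00122 to 0.00264. The exceptions that rose are both proteases. Lgmn, the asparaginyl endopeptidase that processes cathepsins and antigens, had 11.3 and 10.7 RPKM in SI-ILC2 and 1.37 and 1.27 RPKM in WAT-ILC2 (log2 change 2.37, SE 0.14, adjusted p = 0.00023), and Scpep1, a serine carboxypeptidase gene, had 2.61 and 3.03 against 1.33 and 1.19 RPKM. Without SI-ILC2 replicate 1 the number of hydrolase genes that fell was 10. Gm2a, the cofactor of ganglioside breakdown and the most abundant of the list, had 55.9 and 49.9 RPKM in SI-ILC2 and 47.2 and 33.8 RPKM in WAT-ILC2 and was not called (adjusted p = 0.136). The summed macrophage and dendritic cell markers, given with the cathepsins, were also lower in SI-ILC2, and Xcr1 was the most abundant of them. Of these 20 genes 16 were not tested and 3 were called lower. Cd14 overlapped between the tissues, at 0.803 and 1.39 RPKM in SI-ILC2 and 1.12 and 2.08 RPKM in WAT-ILC2 (adjusted p = 0.297). The part of such cells in the hydrolase result was not tested.

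Lysosomal membrane proteins outside the LAMP family numbered 1 higher and 8 lower of 20 tested (5% and 40%, beside the background of 17.9% and 29.6%), and 3 of the 8, Npc1, Slc17a5 and Slc38a9, passed the filter only through WAT-ILC2. Abca2, a lysosomal lipid transporter, had 5.53 and 8.10 RPKM in SI-ILC2 and 29.8 and 32.3 RPKM in WAT-ILC2 (log2 change -2.06, adjusted p = 0.000674), and Cln3 and the chloride carrier partner Ostm1 fell by 0.81 each on the log2 scale. Laptm5, a lysosomal protein of blood cells, was the most abundant at 112 and 116 against 192 and 196 RPKM, and Laptm4a rose, at 3.58 and 3.15 against 1.49 and 1.25 RPKM. The call of Laptm5 was lost without either SI-ILC2 library (adjusted p up to 0.0996).

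Further autophagy genes were split, with 6 higher and 8 lower of 24 tested (25% and 33.3%, beside the background of 17.9% and 29.6%). Toward SI-ILC2 lay Fam134b, a receptor for autophagy of the endoplasmic reticulum (8.84 and 12.5 RPKM against 3.13 and 3.71 RPKM in WAT-ILC2), Trp53inp1, which encodes a protein that binds ATG8 proteins (8.36 and 8.87 against 3.05 and 2.55 RPKM), and the cargo receptor gene Tax1bp1 (51.6 and 66.0 against 25.9 and 36.9 RPKM). Toward WAT-ILC2 lay Tecpr1, which helps autophagosomes to fuse with lysosomes (5.36 and 5.48 RPKM in SI-ILC2, 11.8 and 11.8 RPKM in WAT-ILC2), the mitophagy receptor gene Bnip3 (0.708 and 0.552 against 1.94 and 1.61 RPKM) and Calcoco1 (2.76 and 3.11 against 5.09 and 5.53 RPKM). The call of Tax1bp1 was lost without SI-ILC2 replicate 2 (adjusted p = 0.0814) and that of Calcoco1 without SI-ILC2 replicate 1 (adjusted p = 0.0723).

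Of the mTORC1 and MiT/TFE list 4 were higher and 3 lower of 21 tested (19% and 14.3%, beside the background of 17.9% and 29.6%). Foxo1, a transcription factor with autophagy targets, had the largest change on the log2(RPKM + 1) scale, at 12.7 and 14.7 RPKM in SI-ILC2 and 3.76 and 3.93 RPKM in WAT-ILC2 (log2 change 1.6, adjusted p = 0.000651). Rraga, a GTPase that recruits mTORC1 to lysosomes, rose (3.84 and 4.47 against 1.85 and 2.01 RPKM), while Lamtor2, of its membrane anchor, fell (0.717 and 0.311 against 2.63 and 2.03 RPKM), as did Rptor, the mTORC1 scaffold (0.938 and 1.44 against 3.002 and 3.20 RPKM). Tfe3, the relative of Tfeb that was also tested, had 1.84 and 2.28 RPKM in SI-ILC2 and 3.17 and 2.40 RPKM in WAT-ILC2 and was not called (adjusted p = 0.176). Genes of enzyme sorting and endosome fusion numbered 3 higher and 3 lower of 16 (18.8% each, beside the background of 17.9% and 29.6%). Rab7, the GTPase of late endosomes, was the most abundant at 84.3 and 73.8 against 59.1 and 52.8 RPKM (adjusted p = 0.0400). Its call was lost without either SI-ILC2 library or WAT-ILC2 replicate 2.

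**Figure D5:**
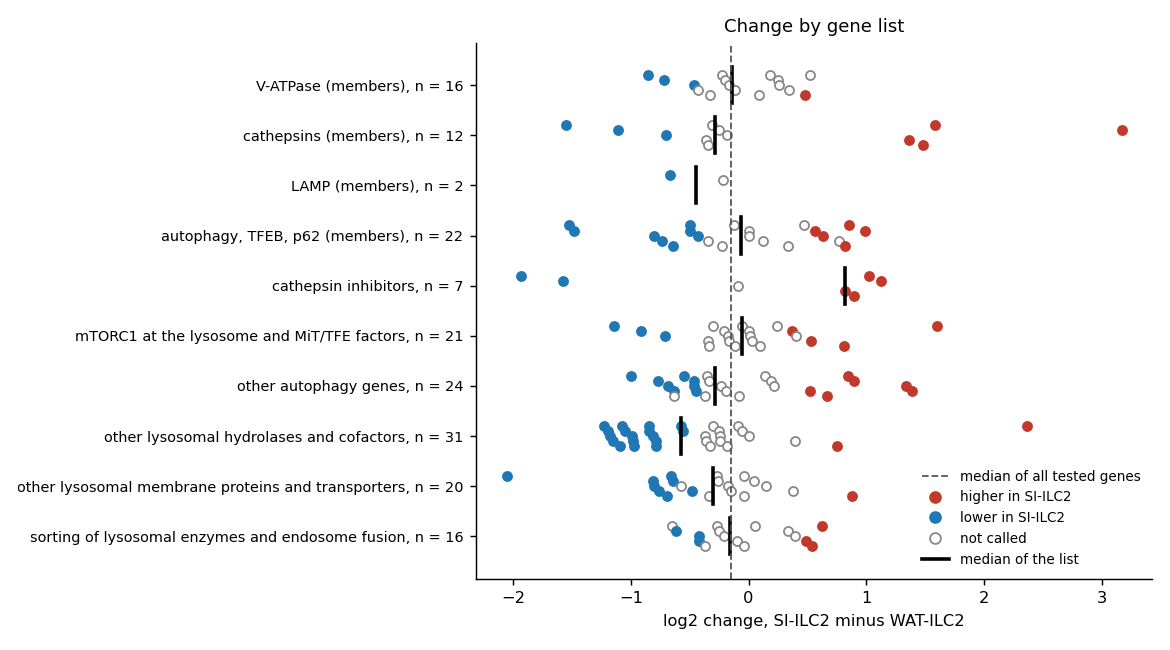
Log2 change (SI-ILC2 minus WAT-ILC2) of every tested gene in the member classes and in the lists of other pathway genes, with red points higher, blue points lower and open points not called, black bars at list medians and a dashed line at the median of all tested genes (-0.15). The other hydrolases lie mostly left of the dashed line, with a median of -0.57, and Lgmn lies far to the right at 2.37.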

How the data were processed

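RNA of 4 libraries was analysed, 2 per tissue. The authors deposited 1 table of RPKM for 22083 genes, with a column per library. Reads were processed with STAR 2.6.0 and featureCounts 1.6.0 of Subread on GRCm38 (mm10), per the submitters' processing notes. No source used here gives the gene annotation, strand setting or handling of multi-mapped reads. RPKM has no correction for composition, so abundant transcripts lower all others.

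Columns were matched to samples by title. Values were transformed to log2(RPKM + 1), and limma 3.58.1 (R 4.3.3, variance trend, no covariate) compared SI-ILC2 minus WAT-ILC2 over all genes with at least 1 RPKM in at least 2 libraries. This scale understates changes of low genes. Count models were not applied to RPKM. The depth is the one at which most values of low single-exon genes gave whole reads (77.7% to 80.6% within 0.1, against 20% by chance). An exact permutation test of 1 gene cannot pass the threshold in this design.

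The genes, roles and lists were chosen with earlier results of these data known. Statistics are given for up to 12 called members per direction with the largest changes, and for the other lists up to 3 called genes per direction and the most abundant gene. Tfe3, Tcirg1, the list genes named for passing the filter through a single tissue, and the marker examples were named outside that rule, after their values were seen. Coordinates are from GENCODE M21 (GRCm38), in which all 73 symbols matched a single gene. Alternatives were a pseudocount of 0.1, no filter or one of 5 RPKM, median-of-ratios, equal-sum or quantile scaling, no variance trend, a replicate block, and each library left out. The model fit was tested on simulated data. Python 3.11.15, pandas 2.3.3 and matplotlib 3.10.9 were used.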

Additional observations from a re-analysis of the deposited data

How the results depend on the processing

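Of the 25 called lysosome and autophagy genes, 12 kept their call under all 12 alternatives in which they were tested, and none changed direction. Calls per setting follow, with the count as reported in parentheses. Why a count moved was not tested, except that stricter filters test fewer genes and a library left out leaves an arm with 1 library, which limma assumes to vary like the others.

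Without a filter on low values, called genes were 1 of the ATG8 genes higher (2), 0 of the V0 sector higher (1), 1 of autophagy initiation higher (0) and 1 lower (3), 0 of the LAMP genes lower (1), 2 of the mTORC1 list higher (4), 5 of other autophagy genes lower (8) and 1 of the sorting list lower (3). With at least 5 RPKM in 2 libraries, 899 of all genes were higher (1470) and 1182 lower (2436). Under that filter 1 initiation gene was lower (3), 1 cysteine cathepsin higher (4), 0 of Tfeb and Sqstm1 lower (1), 2 of the mTORC1 list higher (4) and 1 lower (3), 5 other autophagy genes lower (8), 1 hydrolase higher (2) and 8 lower (17), 0 membrane proteins higher (1) and 3 lower (8), and 1 sorting gene higher (3) and 1 lower (3).

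With median-of-ratios scaling 2 V0 genes were higher (1), 1 initiation gene lower (3), 0 LAMP genes lower (1), 4 other autophagy genes lower (8), and 5 sorting genes higher (3) and 1 lower (3). With equal column sums 1 ATG8 gene was higher (2) and 2 lower (1), 0 V0 genes higher (1), 1 accessory gene lower (0), 2 cysteine cathepsins lower (1), 2 of the mTORC1 list higher (4), and 1 sorting gene higher (3) and 5 lower (3). With quantile normalization 0 V0 genes were higher (1), 1 initiation gene lower (3), 5 other autophagy genes lower (8) and 1 sorting gene lower (3).

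The replicate numbers of the titles are shared by both tissues, with no label that pairs the libraries, and same-numbered libraries deviated from their group means with a correlation of 0.572. With a replicate block 16 members were higher (10), 22 were lower (15) and 2271 of all genes were higher (1470). With the replicate block 2 ATG8 genes were lower (1), 2 V0 genes higher (1) and 1 lower (0), 2 V1 genes higher (0), 1 accessory gene lower (0), 1 initiation gene higher (0), 4 cysteine cathepsins lower (1), 5 of the mTORC1 list lower (3), 2 membrane proteins higher (1), and 5 sorting genes higher (3) and 6 lower (3).

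When each library was left out in turn, 6 to 10 members were higher (10) and 6 to 14 lower (15), and 1492 to 2551 of all genes were lower (2436). By role this gave 1 to 2 ATG8 genes higher (2), 0 V0 genes higher in all 4 cases (1) and 0 to 1 lower (0), 0 to 1 V1 genes higher (0) and 1 to 3 lower (3), 0 to 1 initiation genes higher (0) and 0 to 2 lower (3), and 1 to 2 cysteine cathepsins lower (1). It also gave 0 to 1 LAMP genes lower (1), 0 to 1 of Tfeb and Sqstm1 higher (1), 1 to 2 serine or aspartic cathepsins lower (2), and 1 to 2 conjugation genes higher (2) and 1 to 4 lower (3). In the other lists it gave 2 to 4 mTORC1 genes higher (4), 2 to 7 other autophagy genes lower (8), 10 to 17 hydrolases lower (17), 1 to 2 membrane proteins higher (1), and 0 to 2 sorting genes higher (3) and 0 to 5 lower (3).

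Changes of sign were confined, in these settings, to genes that were not called. Atg14 was at 0.0149 with median-of-ratios scaling, 0.0245 with quantile normalization and -0.26 to 0.0127 with a library left out. With equal sums Atg5 was at -0.11, Atg7 at -0.12, Atp6v1h at -0.0496 and Becn1 at -0.0279, and with median-of-ratios scaling Atp6v1b2 was at 0.0588. With a library left out, the log2 change of Atg16l1 ranged from -0.55 to 0.10, the log2 change of Atg5 from -0.0405 to 0.0549, the log2 change of Atg7 from -0.21 to 0.21 and the log2 change of Atp6v0a2 from -0.34 to 0.0047. Likewise the log2 change of Atp6v0e ranged from -0.54 to 0.0861, the log2 change of Atp6v1b2 from -0.29 to 0.0627, the log2 change of Atp6v1h from -0.0181 to 0.19 and the log2 change of Tcirg1 from -0.0683 to 0.82.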
